A study of Mus musculus with 6 samples.

Results

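The bone morphogenetic protein (BMP) ligands described here were 7 of the 33697 genes in the count tables: Bmp2, Bmp3, Bmp4, Bmp5, Bmp6, Bmp7 and Gdf10. They were picked by name from the gene list of the tables. All 7 were detected. BMP ligands are secreted dimers of the TGF-beta superfamily that bind type I and type II serine/threonine kinase receptors, upon which SMAD1, SMAD5 and SMAD8 are phosphorylated and genes such as Id1 are transcribed. In the gut, BMP signaling is low around the crypt base, where antagonists such as gremlin are made, and high toward the epithelial surface, where it restrains stem cell renewal and favors differentiation.

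Single-cell libraries were made from live lamina propria cells that had been sorted for tdTomato, and the mice were Flare-TSLP reporters. These are C57BL/6 mice in which a reporter and loxP cassette was inserted at the Tslp locus, and every library shares this allele. In them tdTomato marks cells that transcribe the cytokine gene Tslp. There were 2 libraries from the proximal small intestine (pSI; labeled proximal jejunum), 2 from the distal small intestine (dSI; distal ileum), a single one from the cecum and a single one from the large intestine (LI). No feeding, fasting or hormone treatment is named for them. Peyer's patches were removed, the epithelial fraction was shaken off, and dead cells were excluded by DAPI. Each library carried 3 hashtag antibodies. The study describes several biological samples per tissue, multiplexed by hashtag, so that a hashtag may mark a biological sample. No source used here says which mouse a hashtag marks, so the library was the replicate and each may pool several mice. The cecum and the LI thus had no replicate library, and p-values measure the spread between libraries, which may be partly technical.

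The libraries held 109675337 to 206827504 gene UMIs (unique molecular identifiers, each counting 1 captured transcript end), and 93558 cells passed the filters, 11174 to 19073 per library, at a median of 6606 to 9233 UMIs per cell. A tdTomato UMI was found in 2576 of these cells (2.753%), so the label of the sort could not be checked cell by cell from the counts. Barcodes with at most 100 UMIs, taken here as free RNA, held 2.902% to 3.822% of all UMIs, and 38 to 118 cell barcodes were shared in each of the 15 pairs of libraries. Each level is in counts per 1000000 (CPM): the gene's UMIs over all cells of a class in a library, divided by the total UMIs of those cells. They are not corrected for transcript length, so each gene is compared with itself across classes and libraries and not with other genes.

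Cells were grouped into classes by clustering with the 7 genes left out of the clustering, and clusters were named from marker genes. Fibroblast-like cells made up most of every library (9463 to 16750 cells). Lymphatic endothelial-like cells numbered 2447 and 5457 in pSI, 789 and 6147 in dSI, 232 in the cecum and 261 in the LI. Telocyte-like cells, a fibroblast subset marked by Foxl1 and known to lie beneath the epithelium, were 166 and 86 in pSI, 66 and 51 in dSI, 729 in the cecum and 3373 in the LI, or 0.283% to 1.06% of small intestinal, 5.58% of cecal and 30.2% of LI cells. They were cluster 20 in the small intestine, with 9 of 9 telocyte markers raised, and cluster 8 in the cecum and LI, with 8 of 9 raised. The marker not raised in cluster 8 was Lgr5, by which the study names villus tip telocytes. Lgr5 was 15.96 CPM in cluster 8 and 708.2 in cluster 20, where it led. Pericyte-like cells, which wrap small vessels, numbered 50 to 385 per library, and myofibroblast or smooth muscle-like cells 84 to 432. Blood endothelial-like cells numbered 133 to 616 outside the cecum, where there were 18. A tdTomato UMI was found in 0 of 1470 blood endothelial-like, 0 of 487 T or innate lymphoid-like and 0 of 179 glia-like cells. It was found in 2248 of 69374 fibroblast-like and 189 of 15333 lymphatic endothelial-like cells. The lymphatic endothelial-like cells were clusters 3 and 7, with 7 of 8 markers raised in each, and immediate early and stress genes such as Apold1 and Dusp2 were among the leading genes of cluster 3.

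In GRCm39, all 7 genes had a position in the annotation. Bmp2 lies on chromosome 2 (chr2:133394079-133404816, plus strand) and so does Bmp7 (chr2:172709805-172782410, minus strand). Bmp3 lies at chr5:99002268-99032255 (plus), Bmp5 at chr9:75682638-75807592 (plus) and Bmp6 at chr13:38529065-38684280 (plus). Gdf10 (chr14:33645273-33659940, plus) and Bmp4 (chr14:46620250-46636745, minus) share chromosome 14. Genes on the other strand that are also in the count tables overlap Bmp4 (Gm15217 and Gm15222), Bmp5 (Gm26903) and Bmp6 (Txndc5 and 4930579J19Rik).

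The RefSeq promoter table (GRCm38.p6) held 4 of the 7 genes. All 4 are shown, and Bmp2, Bmp3 and Bmp7 were absent from it. Each run is the 250 bases before the annotated start, read 5′ to 3′ on the strand of the gene, with every GGGCGG or its reverse CCGCCC (the GC box core bound by Sp1-type factors) in capitals.
Bmp4 (chr14:46390670-46390919, minus strand): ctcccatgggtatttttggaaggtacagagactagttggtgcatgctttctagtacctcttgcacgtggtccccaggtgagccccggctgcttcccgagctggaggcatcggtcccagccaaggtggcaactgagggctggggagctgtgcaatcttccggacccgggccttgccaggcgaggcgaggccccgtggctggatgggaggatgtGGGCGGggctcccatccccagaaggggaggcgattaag
Bmp5 (chr9:75775115-75775364, plus strand): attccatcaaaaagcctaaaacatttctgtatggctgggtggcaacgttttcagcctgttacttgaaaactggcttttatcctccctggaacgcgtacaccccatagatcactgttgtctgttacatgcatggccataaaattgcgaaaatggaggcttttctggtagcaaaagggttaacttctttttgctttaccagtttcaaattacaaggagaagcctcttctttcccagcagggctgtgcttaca
Bmp6 (chr13:38345466-38345715, plus strand): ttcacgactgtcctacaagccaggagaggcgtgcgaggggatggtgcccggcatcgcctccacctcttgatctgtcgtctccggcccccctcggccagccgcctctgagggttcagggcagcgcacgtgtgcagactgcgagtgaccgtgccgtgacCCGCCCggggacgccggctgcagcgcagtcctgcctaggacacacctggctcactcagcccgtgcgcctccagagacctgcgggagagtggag
Gdf10 (chr14:33923337-33923586, plus strand): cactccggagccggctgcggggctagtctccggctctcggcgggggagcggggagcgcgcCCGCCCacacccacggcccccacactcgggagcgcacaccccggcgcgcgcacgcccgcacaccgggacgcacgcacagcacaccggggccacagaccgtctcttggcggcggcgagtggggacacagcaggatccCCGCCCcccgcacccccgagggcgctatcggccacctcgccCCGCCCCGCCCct
The 4 windows differed in base composition. The Bmp5 window was 42.8% G or C with 4 CpG dinucleotides and no match to GGGCGG. The Gdf10 window was 78.8% G or C with 35 CpG and 4 matches, 2 of which overlap by 1 base near its 3′ end. The Bmp4 and Bmp6 windows, at 63.2% and 68.8% G or C, had 11 and 22 CpG and 1 match each. Over all 32851 promoters of the table, 32.74% held GGGCGG on either strand. Matches to GGCGCC (9.586% of all promoters), CCAAT (33.85%) and TATAAA (12.37%), each searched on both strands, were 0 in all 4 windows.

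The levels across classes are given first for the small intestine, where each class had 4 libraries. Bmp2, Bmp3, Bmp4, Bmp5, Bmp6 and Bmp7 were each highest in telocyte-like cells, and there the libraries did not overlap those of the next class. Bmp2, whose product binds the type I receptor BMPR1A, stood at 447.9 ± 64.01 (SD, n = 4) CPM in telocyte-like cells. Next came lamina propria fibroblast-like cells at 144.1 ± 21.52 and pericyte-like cells at 98.73 ± 18.6. The lowest Bmp2 level was that of lymphatic endothelial-like cells, 4.413 ± 0.6164. Bmp4, whose product is the close relative of BMP2 and is known as a mesenchymal ligand of the villus, followed the same order at both ends, at 554.1 ± 36.92 in telocyte-like and 7.057 ± 1.995 in lymphatic endothelial-like cells. Subepithelial fibroblast-like cells came second for Bmp4 at 368.8 ± 38.35, above and apart from lamina propria fibroblast-like cells at 291.5 ± 33.7.

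For the BMP5, BMP6 and BMP7 subgroup of ligands, which can signal through the type I receptor ACVR1, the telocyte-like level stood further from the rest for Bmp5 and Bmp7 than for Bmp6. Bmp5 was at 2577 ± 311.6 in telocyte-like cells. Myofibroblast or smooth muscle-like cells followed at 360.3 ± 36.6 and overlapped subepithelial fibroblast-like cells at 347 ± 89.05. Bmp7 was at 196.2 ± 20.89 in telocyte-like cells and at or below 5.987 in the mean of every other class, with lymphatic endothelial-like cells at 5.321 ± 2.438. Bmp6, which in the liver is the endothelial signal for iron sensing, was spread over more classes, at 414.1 ± 37.5 in telocyte-like, 230.5 ± 68.78 in lamina propria fibroblast-like, 80.91 ± 35 in blood endothelial-like and 62.57 ± 25.37 in lymphatic endothelial-like cells. Bmp3, an atypical member that opposes BMP signaling, was at 81.75 ± 28.35 in telocyte-like cells.

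Gdf10, also called BMP3B and the nearest relative of BMP3, had another order. Cluster 13, an unnamed cluster found mostly in the small intestine with 5 pericyte, 4 interstitial cell of Cajal and 3 telocyte markers raised, was led by Scg2, Gm4956, Ptn, Col25a1 and Gdf10. It held Gdf10 at 535.2 ± 170 CPM and was not counted among fibroblast-like cells. Because Gdf10 is among its leading genes, that level describes the cluster. Universal fibroblast-like cells, a subset marked by Pi16 and Dpp4, stood at 278.6 ± 54.74, and trophocyte-like cells, the Grem1-producing subset around crypts, at 8.698. Telocyte-like cells were lowest at 0.4265, with Gdf10 at 1.71 in pSI 1 and at 0 in the 3 other small intestinal libraries. Neighbors in these orders mostly could not be separated: of the 15 neighboring pairs among 16 classes, the ranges of the 4 libraries overlapped in 12 for Bmp2, 14 for Bmp3, 11 for Bmp4, 13 for Bmp5, 14 for Bmp6, 14 for Bmp7 and 13 for Gdf10.

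**Figure D1:**
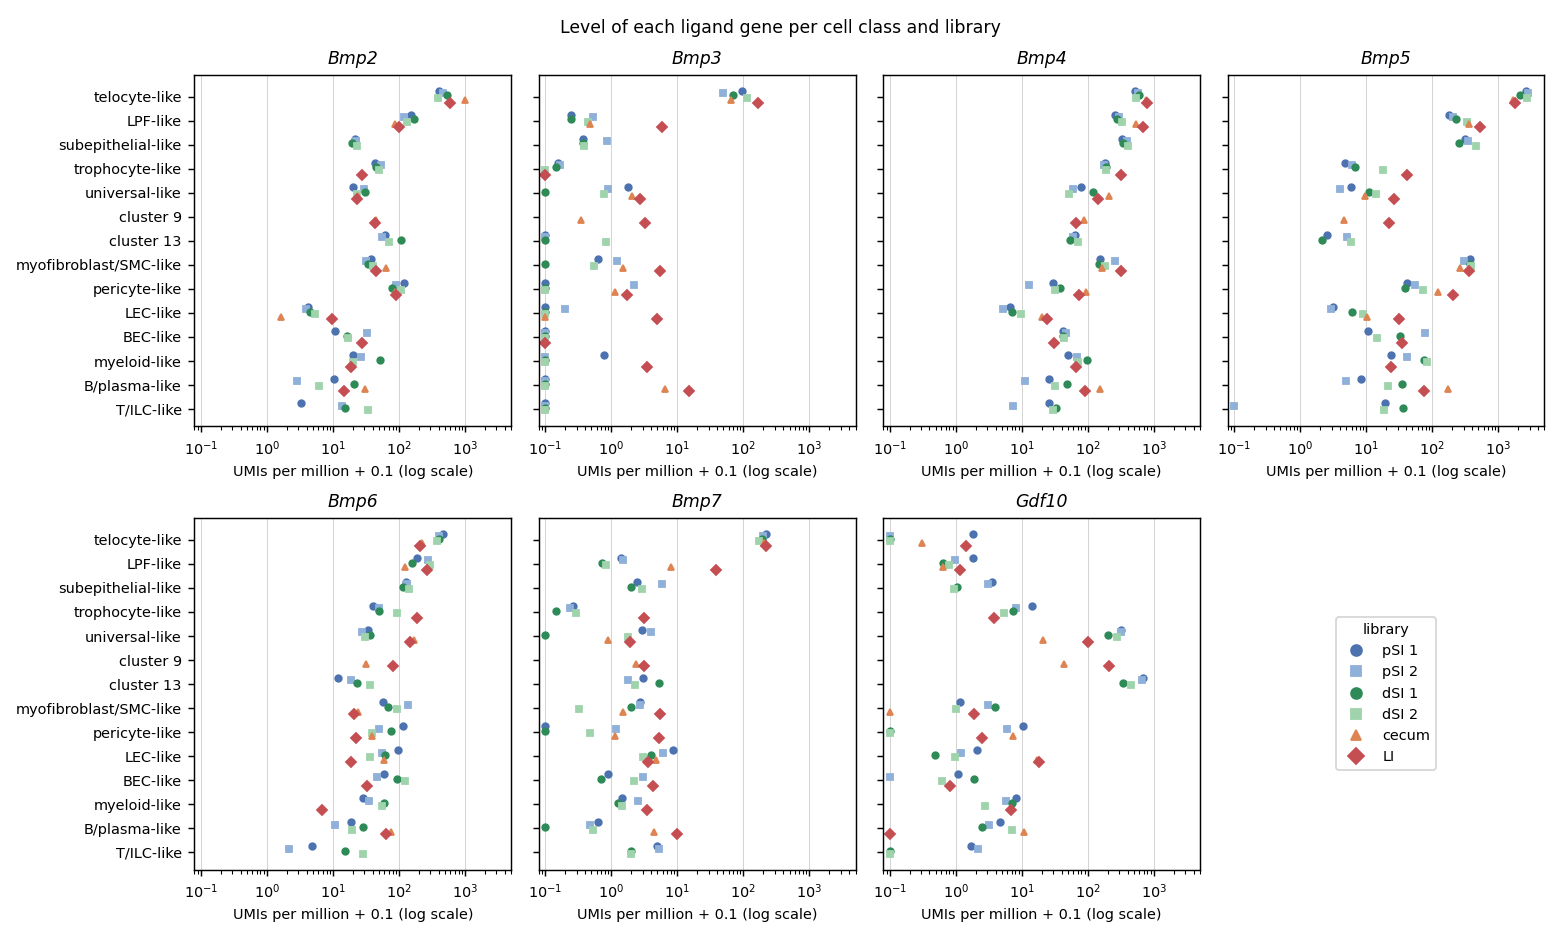
Level of each of the 7 genes (CPM of the class, plus 0.1, log axis) in 14 cell classes, with 1 point per library colored by gut region. Bmp2, Bmp3, Bmp4, Bmp5 and Bmp7 peak in telocyte-like cells in all 6 libraries and Bmp6 in all but the LI, whereas Gdf10 is near the bottom there and peaks in cluster 13 in the small intestine and cluster 9 in the large bowel.

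None of the 7 genes passed the threshold between the distal and the proximal small intestine in any class tested (edgeR quasi-likelihood test on summed UMIs without a replicate block, Benjamini-Hochberg adjusted p under 0.05 over all genes tested). Of 47 tests in 8 classes, 0 passed with edgeR and 0 with limma-voom, while DESeq2 called 1. At an unadjusted p under 0.05 the counts were 11, 12 and 10. Over all genes edgeR gave 657 of 14810 in lymphatic endothelial-like, 726 of 11719 in pericyte-like and 1059 of 13033 in B or plasma-like cells. It gave 425 of 11637 in myofibroblast or smooth muscle-like, 558 of 11249 in telocyte-like and 739 of 20485 in fibroblast-like cells. In lamina propria fibroblast-like cells it gave 915 of 18159, and in universal fibroblast-like cells 291 of 12464. Few genes of any kind passed: 0% of all genes tested in lymphatic endothelial-like, pericyte-like and B or plasma-like cells, 0.0602% in myofibroblast or smooth muscle-like, 0.0267% in telocyte-like, 0.0146% in fibroblast-like, 0.105% in lamina propria fibroblast-like and 0.00802% in universal fibroblast-like cells. The lowest edgeR p of the 47 belonged to Bmp5 in lymphatic endothelial-like cells, with a distal minus proximal log2 difference of 1.42 (adjusted p = 0.199) on 2.99 and 2.78 CPM in pSI and 5.99 and 8.77 in dSI. Its libraries did not overlap, and in T or innate lymphoid-like cells Bmp5 was 19.1 and 0 in pSI and 36.3 and 18.7 in dSI, above the lymphatic level in all but pSI 2.

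For the large bowel, the mean of cecum and LI was compared with the mean of pSI and dSI within each class, which assumes that the single cecal and LI libraries would vary like the small intestinal ones. Over the 8 classes 25 of 47 tests passed, 21 with the gene higher in the large bowel and 4 lower (31 at an unadjusted p under 0.05). The classes overlap, since all fibroblast-like cells include the telocyte-like, lamina propria fibroblast-like and universal fibroblast-like cells. Of the 21 higher calls 6 were in all fibroblast-like cells. The share of all genes called was 19.1% in lymphatic endothelial-like, 16.6% in pericyte-like, 14.4% in myofibroblast or smooth muscle-like, 19.3% in telocyte-like, 37.5% in lamina propria fibroblast-like, 8.58% in universal fibroblast-like, 29.5% in all fibroblast-like and 2.06% in B or plasma-like cells. Unadjusted, all genes passing were 5236 of 14810, 3756 of 11719, 3704 of 11637 and 3937 of 11249 in the first 4 of these classes. In the others, in that order, they were 9000 of 18159, 3344 of 12464, 9323 of 20485 and 2922 of 13033. The LI and the cecum were not tested against each other.

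**Figure D2:**
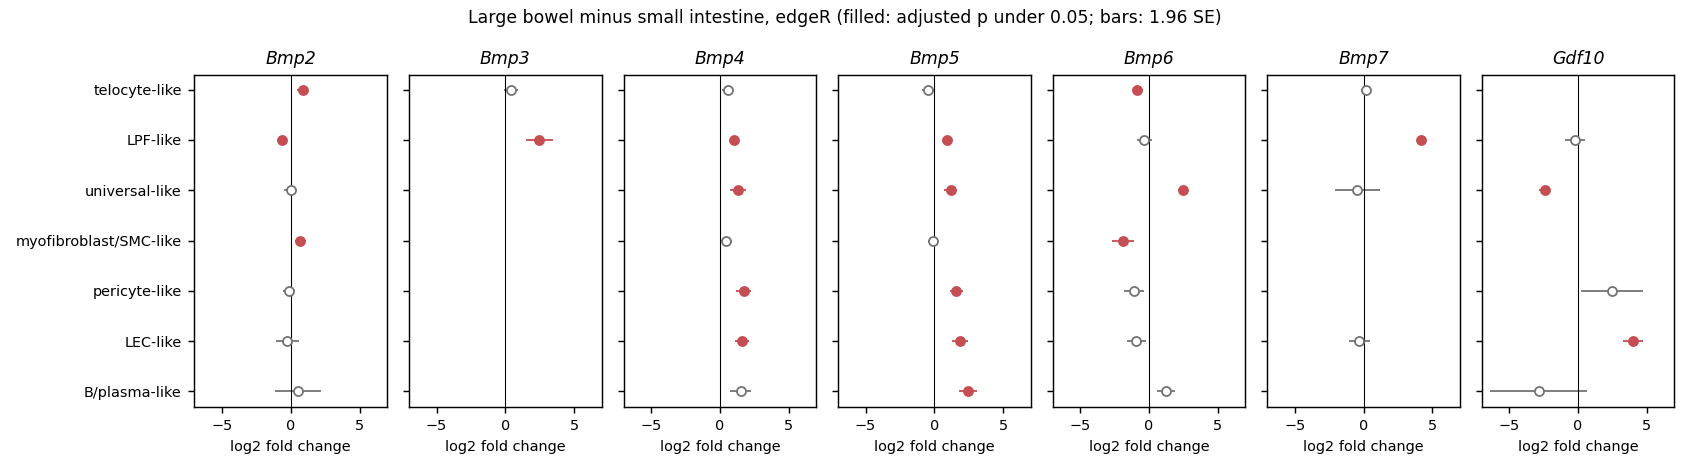
Log2 difference between the large bowel (mean of cecum and LI) and the small intestine for each of the 7 genes by class. Points are filled where the adjusted p was under 0.05. Bars are approximate 95% intervals from a normal quantile, narrower than the test implies. All fibroblast-like cells, with 6 calls, are not drawn, and any fit with a very large SE is left out. Bmp2, Bmp6 and Gdf10 have filled points on both sides of 0.

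Telocyte-like cells were cluster 20 in the small intestine and cluster 8, with little Lgr5, in the large bowel. The part of this in their differences was not tested. In telocyte-like cells Bmp2 was higher and Bmp6 lower in the large bowel, and the other 4 genes tested did not pass. Bmp2 was 407 and 459 CPM in pSI, 534 and 392 in dSI, 996 in the cecum and 590 in the LI. Both large bowel values lay above all 4 small intestinal ones, the cecum further than the LI, and the log2 difference was 0.86 (SE 0.21, adjusted p = 0.0179). Without the cecum it was 0.47 (adjusted p = 0.293), and it also missed the threshold without pSI 1 (0.0822) or pSI 2 (0.0506). Bmp6 was 464 and 408 in pSI, 411 and 373 in dSI, 227 in the cecum and 208 in the LI. Again the groups did not overlap, and the log2 difference was -0.84 (SE 0.21, adjusted p = 0.0179). With cells gated one by one on markers in place of clusters, the Bmp6 difference was -0.27 (adjusted p = 0.395).

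Bmp5 in these cells was 2608 and 2859 in pSI, 2136 and 2706 in dSI, 1664 in the cecum and 1792 in the LI. A Bmp5 UMI was found in 99.3% to 100% of telocyte-like cells of each library. Its large bowel values were the lowest of the 6, with a log2 difference of -0.49 (adjusted p = 0.131). Bmp4 was 513, 577, 592 and 534 in the small intestine, 764 in the cecum and 790 in the LI (log2 difference 0.57, adjusted p = 0.0657). Both genes were split by gut region without overlap, yet neither passed the threshold. Bmp7 was 222, 201, 190 and 172 in the small intestine, 206 in the cecum and 217 in the LI. The difference was 0.20 on the log2 scale (adjusted p = 0.489). Its approximate 95% interval, narrower than the test implies, was -0.17 to 0.57. The cecum and LI lay inside the Bmp7 range of the 4 small intestinal libraries, of which both pSI values were above both dSI values.

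Bmp3 in telocyte-like cells was 95.5, 48.8, 69.4 and 113 in the small intestine, 64.4 in the cecum and 164 in the LI (log2 difference 0.43, adjusted p = 0.269). The cecum lay within the small intestinal range and the LI above it. Bmp3 was also among the 10 leading genes of cluster 8, so its level there describes that cluster. Gated cell by cell, Bmp3 and Bmp7 passed in telocyte-like cells with log2 differences of 1.30 and 1.05. Gdf10 stayed near 0 in these cells, at 0.207 in the cecum and 1.33 in the LI. The summed level of the 9 telocyte markers was 11769 to 15437 CPM in the small intestine, 9694 in the cecum and 7605 in the LI, with none at 0. The pericyte marker sum was 577 to 794, then 252 and 111, and the blood endothelial one 166 to 482, then 107 and 19.5. The part of these sums in the telocyte-like differences was not tested.

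Within the cecal and LI libraries the spread between hashtags gave a view of variation inside a library. In LI telocyte-like cells Bmp5 ranged from 1733 to 1851 over the 3 hashtags, Bmp7 from 211.1 to 226.3 and Bmp6 from 207.8 to 220.8. Bmp2 ranged more widely, from 470.5 to 770.6 in the LI and from 904.7 to 1074 in the cecum. These ranges do not meet for Bmp2. Small intestinal hashtags with at least 20 such cells held Bmp2 at 410 to 466 in pSI 1, 463.1 in pSI 2 and 828.9 in dSI 1. The dSI 1 value, of 40 cells, lay above every LI hashtag. Bmp3 was 139.2 to 188.2 in the LI and 50.9 to 72.7 in the cecum, which do not meet either.

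In the LI telocyte-like cells held most UMIs of 4 of the genes. They were 30.2% of LI cells and held 93.5% of Bmp3, 81.3% of Bmp7, 79.3% of Bmp2 and 73.2% of Bmp5 UMIs, with 47.1% of Bmp4 and 33.8% of Bmp6. In the cecum, where they were 5.58% of cells, they held 74.8% of Bmp3, 74.1% of Bmp7, 51.4% of Bmp2, 36.4% of Bmp5, 11.5% of Bmp4 and 8.6% of Bmp6 UMIs. In the small intestine, at 0.283% to 1.06% of cells, their share was still 47.6% to 81.8% for Bmp3 and 25.5% to 51.7% for Bmp7, but 4.0% to 18.5% for Bmp5. These shares describe the sorted cells, and how the sort shaped the number of telocyte-like cells was not tested.

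**Figure D3:**
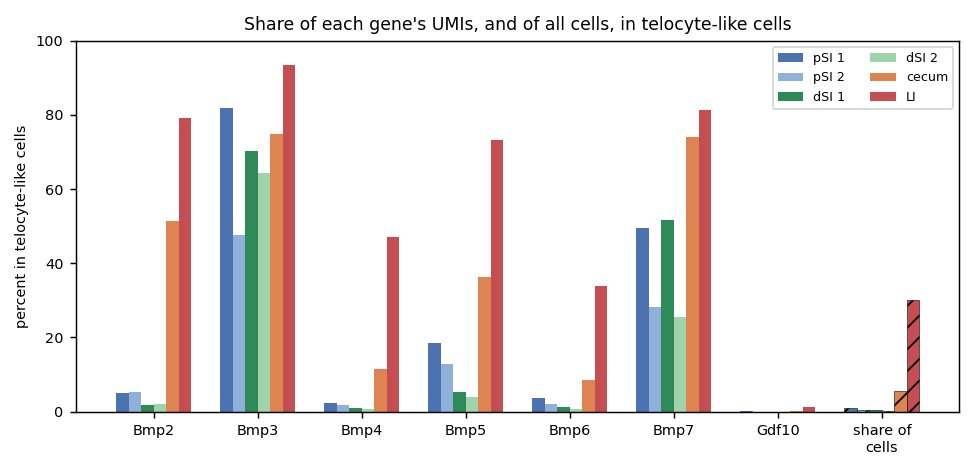
Percent of each gene's UMIs that came from telocyte-like cells in each library (bars), beside the percent of cells in that class (hatched). In the LI the share exceeds 70% for Bmp2, Bmp3, Bmp5 and Bmp7 at 30.2% of cells.

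Lymphatic endothelial cells line the vessels that drain fat and lymph from the villi. Of the 7 genes, Bmp6 and Bmp7 lay above the levels of B or plasma-like cells, taken as lacking these ligands, in each small intestinal library. For Bmp7 the margin over T or innate lymphoid-like cells was smaller, with 6.04 against 5.17 CPM in pSI 2. Lymphatic Bmp6 was also above myeloid-like and glia-like cells in the small intestine except in dSI 2, where those held 55.5 and 60.7 CPM. The Bmp6 level was 97.1 and 55.0 CPM in pSI, 61.6 and 36.5 in dSI, 58.4 in the cecum (95% Poisson interval 46.0 to 73.3) and 18.7 in the LI (13.5 to 25.2). The LI was below all other libraries, and the cecum lay inside the small intestinal range. In small intestinal B or plasma-like cells Bmp6 was 18.8, 10.8, 28.5 and 19.7. In the large bowel those cells exceeded the lymphatics, at 75.0 in the cecum and 64.1 in the LI. Their fibroblast marker sum was also above the lymphatic one, at 10052 against 1178 in the cecum and 3466 against 892 in the LI. The part of background in the Bmp6 level of either class was not tested. A Bmp6 UMI was found in 26.4%, 18.1%, 18.9% and 13.3% of small intestinal, 15.9% of cecal and 11.1% of LI lymphatic endothelial-like cells, against 12.5%, 9.9%, 18.9%, 13.7%, 28.3% and 11.3% of B or plasma-like cells, at median depths of 4573 to 7472 and 3783 to 14788.5 UMIs. In dSI, the cecum and the LI the raw lymphatic share was no higher than in B or plasma-like cells. The latter were deeper in dSI (medians 11372 and 10517 against 6145 and 5510) and the cecum (9046 against 4573). In the LI they were shallower (3783 against 7472), so raw shares do not rank these classes. After thinning every cell to 2500 UMIs the lymphatic shares were 16.5%, 9.79%, 10.6%, 7.47%, 9.48% and 3.07%.

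The large bowel difference of Bmp6 in lymphatic endothelial-like cells was -0.91 on the log2 scale (SE 0.34, adjusted p = 0.0936), and it passed the threshold in 7 of 18 alternative analyses. With the level of free RNA subtracted at 10% of each class sum, LI Bmp6 was 3.39 and cecal Bmp6 51.0 CPM, and the 4 small intestinal values were 99.2, 50.5, 57.7 and 26.9. The lowest value by this reckoning was again the LI.

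Gdf10, Bmp4 and Bmp5 were called higher in large bowel lymphatic endothelial-like cells, 3 of 7 genes tested. At clustering resolution 1.0 these cells sat in different clusters by region: a cluster led by Nts and Stmn2 held 192 cecal and 186 LI cells but 18 to 31 of each small intestinal library, whose lymphatics were mostly in other clusters. For Gdf10 the levels were 2.00 and 1.10 in pSI, 0.386 and 0.872 in dSI, 17.1 in the cecum and 18.2 in the LI, and the log2 difference was 3.99 (SE 0.38, adjusted p = 0.000423). These rest on 22 UMIs in the cecum and 42 in the LI. Free RNA held Gdf10 at 17.0 in the cecum and 46.9 in the LI, and B or plasma-like cells at 10.7 in the cecum, 0 in the LI and 2.37 to 6.99 in the small intestine, the last above the lymphatic levels there. In all 14 large bowel lymphatic endothelial-like cells had a Gdf10 UMI, 7 in each region, and 479 had none, and 8 of the 14 had a single one. One LI cell held 35 of the 64 UMIs, or 83.3% of the LI count. Without the cell with most UMIs in each library, a setting added after the values were seen, the log2 difference was 2.58 (adjusted p = 0.0301). All 14 cells held UMIs of Prox1, the lymphatic master regulator, and 12 of Lyve1, while of the fibroblast markers 8 held Col1a1, 7 Dcn, 1 Pdgfra and 1 Pi16. Of the 479 cells without Gdf10, 201 held Col1a1, 244 Dcn, 34 Pdgfra and 8 Pi16. The 14 cells had a median depth of 11378.5 UMIs against 5918 in the other 479, and 1 of 14 against 18 of 479 had several hashtags.

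Bmp4 was 6.49, 5.01, 6.95 and 9.78 in small intestinal lymphatics, 20.3 in the cecum and 24.3 in the LI (log2 difference 1.60, SE 0.24, adjusted p = 0.00404). Bmp5 was 2.99, 2.78, 5.99 and 8.77, then 10.1 in the cecum and 31.3 in the LI (1.86, SE 0.29, adjusted p = 0.00434). For both genes the large bowel libraries lay above the small intestinal ones. They also lay below B or plasma-like cells of the same libraries, where Bmp4 was 154 in the cecum and 91.3 in the LI and Bmp5 176 and 74.0. Both genes were below B or plasma-like cells in the small intestine too. Those cells held more fibroblast marker RNA than lymphatics, and the part of background in the level of either gene was not tested. In LI B or plasma-like cells 73.3% of the 30 Bmp5 UMIs came from 1 cell, so for Bmp5 in the LI the comparison rests on that cell. In the barcodes taken as free RNA, Bmp5 was 98.2 to 169 in the small intestine, 202 in the cecum and 571 in the LI. Bmp4 was 153 to 186, 290 and 391 there, so free RNA of both genes was also higher in the large bowel. The Bmp5 call was lost without the LI library (1.04, adjusted p = 0.175), without doublet removal (0.14, 0.794), with gates per cell (0.24, 0.809), without the cell with most UMIs (1.28, 0.0558) and without cells of several hashtags (0.97, 0.0916). The Bmp4 call was lost without doublet removal (0.43, 0.0532) and with gates per cell (0.69, 0.0980). With 10% of the free RNA level subtracted, both Bmp4 and Bmp5 were 0 in lymphatics of all 6 libraries, so that setting left neither difference to test.

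Bmp7 in lymphatic endothelial-like cells was 8.42 and 6.04 in pSI, 3.86 and 2.96 in dSI, 4.68 in the cecum and 3.47 in the LI (log2 difference -0.30, adjusted p = 0.708). With free RNA subtracted the LI level was 0 and the cecal one 3.33, and Bmp7 was called lower (adjusted p = 0.0293). The B or plasma-like levels were 0.536, 0.367, 0 and 0.437 in the small intestine, 4.29 in the cecum and 9.87 in the LI. T or innate lymphoid-like cells held Bmp7 at 4.77 and 5.17 in pSI, and free RNA at 5.52 and 5.81. Lymphatic Bmp7 was above these references in each small intestinal library, but by little in pSI 2. Among the lymphatic levels both pSI libraries lay above all others, and the large bowel lay within the range of the 4 small intestinal ones. The lymphatic cells held 25.7% and 34.6% of all Bmp7 UMIs of the pSI libraries, at 15.7% and 32.8% of the cells. Bmp2 was 3.83 to 5.26 in the small intestine, 1.56 in the cecum and 9.56 in the LI (log2 difference -0.25, adjusted p = 0.730). Bmp3 had 11 UMIs in LI lymphatics, 6 of them in 1 cell, and at most 0.0959 CPM elsewhere. The summed level of the 8 lymphatic markers was 17062.9 to 18135.8 in the small intestine, 22492 in the cecum and 22357.8 in the LI. That of the 8 fibroblast markers was 501 to 963, 1178 and 892, with none at 0 in any library. The blood endothelial marker sum was 1963 to 2301, then 1527 and 1287, and the pericyte one 233 to 292, then 56.9 and 59.1. The part of these markers in the differences was not tested.

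**Figure D4:**
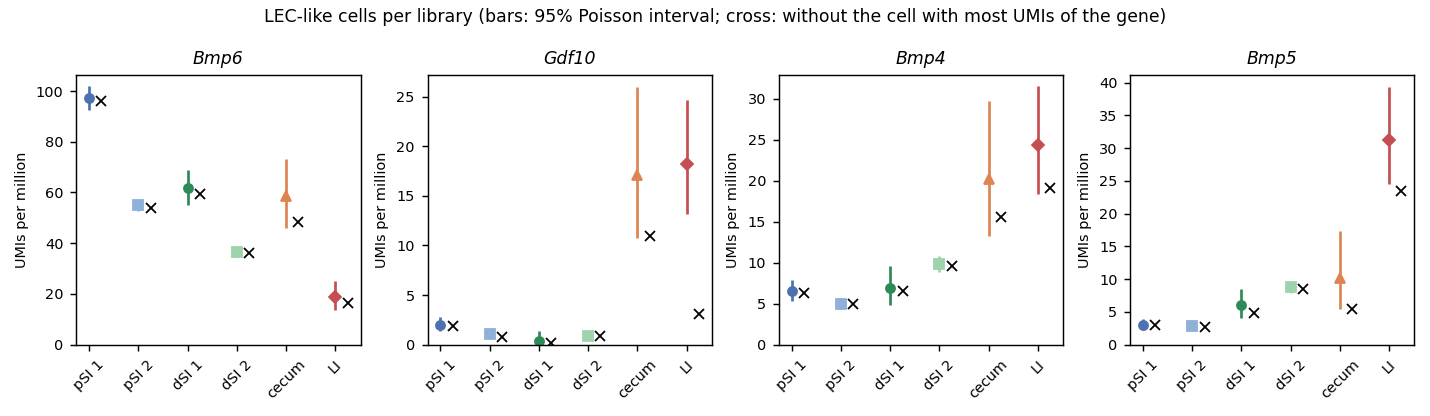
Level of Bmp6, Gdf10, Bmp4 and Bmp5 (CPM) in lymphatic endothelial-like cells of each library with 95% Poisson intervals, which cover counting error only. A cross marks the level without the cell that held most UMIs, and the LI Gdf10 point drops furthest, since 83.3% of its UMIs came from 1 cell.

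Pericyte-like cells had Bmp2 at levels that overlapped between small and large bowel. It was 120 and 89.0 in pSI, 78.5 and 107 in dSI, 85.9 in the cecum and 91.5 in the LI, all above the 2.76 to 30.0 of B or plasma-like cells. The large bowel difference was -0.14 with an approximate 95% interval, narrower than the test implies, of -0.57 to 0.28 (adjusted p = 0.692). Bmp5 and Bmp4 rose, 2 of 5 genes tested. For Bmp5 the values were 41.0, 54.6, 37.9 and 72.3 in the small intestine, 124 in the cecum and 208 in the LI (log2 difference 1.60, SE 0.23, adjusted p = 0.000649), and it passed in 15 of 15 alternatives. For Bmp4 they were 29.9, 12.7, 37.9 and 31.3, then 95.1 and 73.5 (1.73, SE 0.27, adjusted p = 0.00100), and 14 of 15 alternatives called it, the exception being subtraction of free RNA (adjusted p = 0.0687).

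Neither gene overlapped between the regions in pericyte-like cells. B or plasma-like cells held more Bmp4 than pericyte-like cells in the cecum and LI, and more Bmp5 in the cecum but less in the LI. The summed level of the 8 fibroblast markers in pericyte-like cells was 2475, 1483, 7829 and 2842 in the small intestine, 15277 in the cecum and 5861 in the LI, with none at 0, and that of the 9 telocyte markers 1091 to 1680, 1473 and 1264. The fibroblast markers thus moved with Bmp4 and Bmp5 in the cecum, and their part was not tested. Between the 3 hashtags, Bmp5 was 165.5 to 209.7 in the LI and 73.8 to 158.5 in the cecum, and Bmp4 63.5 to 71.0 and 57.4 to 91.6.

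Pericyte Bmp6 was 115, 49.3, 75.8 and 39.6 in the small intestine, 38.9 in the cecum and 22.0 in the LI. Both large bowel values were lowest, the cecum by little, and the difference of -1.09 missed the threshold (adjusted p = 0.0549, called in 5 of 15 alternatives). Gdf10 was 10.2 and 5.83 in pSI, 0 in both dSI libraries, 7.16 in the cecum and 2.40 in the LI, with no call (adjusted p = 0.162). Bmp7 was 0 to 1.06 outside the LI, where it was 5.19, beside 1.02 in the cecum.

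Myofibroblast or smooth muscle-like cells, the contractile cells beneath the epithelium and of the muscle layers, had Bmp5 in every region. It was 376 and 306 in pSI, 371 and 387 in dSI, 265 in the cecum and 361 in the LI. The log2 difference was -0.11 (adjusted p = 0.739), with an approximate 95% interval, narrower than the test implies, of -0.47 to 0.26. All 6 values were above the 4.78 to 176 of B or plasma-like cells. Bmp6 fell, from 56.4, 138, 67.6 and 93.3 in the small intestine to 24.2 in the cecum and 20.5 in the LI. All small intestinal values lay above the large bowel ones, and the log2 difference was -1.90 (SE 0.41, adjusted p = 0.0138), called in 13 of 18 alternatives. At clustering resolution 1.0 one cluster of this class held 83 cecal and 126 LI cells and 65 to 226 of each small intestinal library, while another held 169 to 558 small intestinal cells but 0 cecal and 2 LI cells, and the part of this in the difference was not tested. The call was lost with gates per cell (-0.87, adjusted p = 0.0583), without doublet removal (-1.25, 0.0772), and, at a difference of similar size, without dSI 2 (-1.76, 0.0532), the cecum (-2.02, 0.0523) or the LI (-1.78, 0.116).

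Bmp2 was higher in the large bowel in the same cells, at 37.1, 31.4, 34.3 and 40.3 in the small intestine, 62.6 in the cecum and 45.5 in the LI (log2 difference 0.68, adjusted p = 0.0454), but only 5 of 18 alternatives called it and 27.3% of the 44 cecal UMIs came from 1 cell. At clustering resolution 1.0 the Bmp2 difference was -0.061 (adjusted p = 0.849). Bmp4 was 153, 255, 149 and 180, then 167 in the cecum and 324 in the LI (0.45, adjusted p = 0.195), and with gates per cell it was called higher (1.26, 0.00129). Thus 2 of 4 genes tested passed, 1 in each direction. Bmp7 was 0.225 to 2.65 in the small intestine, 1.42 in the cecum and 5.35 in the LI. The fibroblast marker sum was 8710 to 14551 in the small intestine, 10444 in the cecum and 8146 in the LI, with none at 0. The pericyte marker sum went from 573, 772, 839 and 1209 to 319 and 516, with 1 to 4 of 8 markers at 0, and the lymphatic one was 212 to 299, then 140 and 108, both without overlap between regions, and their part in the Bmp6 difference was not tested.

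Blood endothelial-like cells were not tested between regions, because each fit was made only where all 6 libraries had 50 cells of the class and the cecum had 18. Bmp6 was 58.7 and 47.2 in pSI, 93.2 and 124 in dSI and 32.4 in the LI. Each small intestinal value exceeded those of T or innate lymphoid-like cells (4.77, 2.07, 15.3 and 28.1), and the LI value was below that of B or plasma-like cells (64.1). Bmp4 was 42.7, 46.3, 41.8 and 43.6 in the small intestine and lower, 31.0, in the LI, against 7.24 to 32.5 in small intestinal T or innate lymphoid-like cells and 91.3 in LI B or plasma-like cells. Bmp2 was 10.6, 33.0, 16.4 and 16.6, and 27.5 in the LI, and Bmp5 10.6, 76.8, 32.1 and 14.5, and 34.5. The highest values of both came from pSI 2, where 1 cell held 58.2% of 67 Bmp2 UMIs and 55.1% of 156 Bmp5 UMIs. Bmp3 was 0 in all 5 libraries, which at 3 counts allows up to 0.599 CPM in pSI 1 and 2.11 in the LI.

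Against fibroblast-like cells of the same libraries, 41 of 49 tests in 7 other classes were lower and 0 higher (41 at an unadjusted p under 0.05; limma-voom 37 lower, DESeq2 40 lower). All genes called in either direction made up 68.1% in lymphatic endothelial-like, 59.6% in blood endothelial-like, 58% in B or plasma-like, 53.5% in T or innate lymphoid-like, 49.5% in myeloid-like, 42.8% in pericyte-like and 30.6% in myofibroblast or smooth muscle-like cells. Of the 7 genes, those called were 6, 7, 7, 5, 4, 6 and 6 in that order. Unadjusted, all genes passing were 12571 of 17691, 11038 of 17178, 10662 of 17062 and 9991 of 17133 in the first 4 of these classes. In the others, in that order, they were 9670 of 17396, 8456 of 16732 and 6732 of 16749. Bmp5 in myofibroblast or smooth muscle-like cells differed by 0.33 (adjusted p = 0.380) and Bmp2 in pericyte-like cells by -0.25 (adjusted p = 0.415), so neither was called lower than in fibroblast-like cells. Lymphatic Bmp7, at 0.02 (adjusted p = 0.984), averaged opposite differences. It was above fibroblast-like Bmp7 in all 4 small intestinal libraries (8.42 against 3.75, 6.04 against 4.16, 3.86 against 1.27 and 2.96 against 2.02 CPM) and below it in the cecum (4.68 against 15.2) and the LI (3.47 against 89.2). Lymphatic Bmp6 was lower by -1.63 (SE 0.37, adjusted p = 0.00464), a smaller gap than those of lymphatic Bmp5 (-5.22), Bmp4 (-5.00) and Bmp2 (-4.46). In blood endothelial-like cells the Bmp6 gap was -1.23 (adjusted p = 0.00599).

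The difference between the large bowel effect of a class and that of fibroblast-like cells was tested in 4 classes, and 6 of 28 tests passed (14 at an unadjusted p under 0.05; limma-voom 2, DESeq2 5). The share of all genes called was 10.8% in lymphatic endothelial-like, 5.57% in pericyte-like, 3.81% in myofibroblast or smooth muscle-like and 1.68% in B or plasma-like cells. Unadjusted, all genes passing were 4858 of 19834, 3077 of 18965, 2626 of 18906 and 2871 of 19514 in the same order. Bmp7 had an effect lower by -4.85 in lymphatic endothelial-like cells (adjusted p = 0.00107, 17 of 17 alternatives), in which it was not called, while fibroblast-like Bmp7 went from 1.27 to 4.16 in the small intestine to 15.2 in the cecum and 89.2 in the LI. In myofibroblast or smooth muscle-like cells the effect was lower for Bmp6 by -2.18 (adjusted p = 0.000203), for Bmp5 by -1.41 (0.00525) and for Bmp7 by -3.07 (0.00987). Without the LI library the latter pair was no longer called (-0.79 with adjusted p = 0.207 and -2.62 with 0.458). The fibroblast-like class holds different clusters in each region, with telocyte-like cells at 30.2% of LI but 0.283% to 1.06% of small intestinal cells, and these held 81.3% of LI Bmp7 UMIs without a called Bmp7 change of their own in the cluster-based fit (with gates per cell it was 1.05 and called). The part of this makeup in the 6 differences was not tested. Pericyte Bmp2 had an effect lower by -0.996 (adjusted p = 0.0442, called in 10 of 16 alternatives, and -0.54 with 0.526 without the LI). Lymphatic Gdf10 had an effect higher by 2.55 (adjusted p = 0.00637), which became 1.20 (0.427) without the cell with most UMIs and 1.05 (0.146) without doublet removal.

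Among fibroblast-like cells 6 of 7 genes were higher in the large bowel, and Bmp6 was not (0.18, adjusted p = 0.596). Of the 6 calls 4 rested on the LI: without it the log2 difference went from 0.81 to 0.25 for Bmp2 (adjusted p = 0.466), from 1.16 to 0.34 for Bmp5 (0.468), from 1.26 to 0.59 for Gdf10 (0.132) and from 0.76 to 0.50 for Bmp4 (0.112). The Bmp4 call was also lost without pSI 1 (0.74, 0.120) or pSI 2 (0.81, 0.0871) and the Bmp2 call without pSI 2 (0.73, 0.0637), each at a difference close to that over all libraries, and the Gdf10 call with gates per cell (0.31, 0.457). For Gdf10, cluster 9, an unnamed fibroblast cluster of the large bowel, was counted as fibroblast-like, and cluster 13, mostly small intestinal, was not. Over all cells Gdf10 was 29.2, 15.0, 7.82 and 11.2 in the small intestine, 13.5 in the cecum and 35.3 in the LI, so the regions overlapped. The subsets behind the fibroblast-like sums differed. Of the lamina propria fibroblast markers, cluster 1 of the small intestine raised Adamdec1, Vwc2 and Fbln1, and cluster 4 of the large bowel Adamdec1, Ccl11, Ccl8 and Postn. Cluster 4 also raised 3 subepithelial fibroblast markers, and its Foxl1 was 11.4 CPM against 0.213 in cluster 1. The part of this in the differences was not tested. Lamina propria fibroblast-like cells, made of these clusters, had 4 of 7 genes higher and 1 lower. Their Bmp7 was 1.29, 1.42, 0.629 and 0.738 in the small intestine, 7.88 in the cecum and 38.4 in the LI (log2 difference 4.16, SE 0.13, adjusted p = 2.76e-05, 18 of 18 alternatives). By hashtag it was 27.2 to 51.7 in the LI and 7.41 to 10.0 in the cecum. All 6 libraries separated by region, with the LI the highest, while the telocyte marker sum in these cells was 884 to 1594 in the small intestine, 1457 in the cecum and 1988 in the LI, with none at 0. The pericyte marker sum was 922 to 1556, then 58.9 and 82.2, and the blood endothelial one 19.5 to 37.0, then 103 and 52.2. The part of these markers in the differences was not tested. Bmp4 was 257, 302, 273 and 334, then 534 and 682 (1.04, adjusted p = 0.00371). Bmp2 fell from 154, 120, 169 and 134 to 86.4 and 98.8 (-0.66, adjusted p = 0.0345), opposite in sign to its change in telocyte-like cells. Bmp6 was 189 and 280.0 in pSI, 156 and 297 in dSI, 125 in the cecum and 265 in the LI (-0.35, adjusted p = 0.338), and the LI value was above the 208 of telocyte-like cells, the only library with that order.

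A further pair of calls in lamina propria fibroblast-like cells did not hold under every alternative. Bmp5 was 176, 204, 231 and 339, then 366 and 529 (0.91, adjusted p = 0.0101), and with gates per cell the difference was 0.13 (0.603). Bmp3 was 0.14 to 0.42 in the small intestine, 0.38 in the cecum and 5.67 in the LI (2.48, adjusted p = 0.0127), and without the LI it was 0.55 (0.599).

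Universal fibroblast-like cells, which were 229 to 323 per small intestinal library, 5256 in the cecum and 1878 in the LI, showed opposite changes of Gdf10 and Bmp6. At clustering resolution 1.0 a universal fibroblast-like cluster held 4014 cecal and 557 LI cells but 2 to 9 of each small intestinal library, and an unnamed one with Gdf10 among its leading genes held 1323 and 1348 beside 234 to 322, so the class can hold different clusters by region. Gdf10 fell from 314, 322, 202 and 277 to 21.2 in the cecum and 102 in the LI (log2 difference -2.43, adjusted p = 0.000491). Bmp6 rose from 33.6, 27.6, 36.0 and 30.9 to 172 and 145 (2.44, adjusted p = 0.000119). Neither overlapped between regions, and both were called in 16 of 17 alternatives, the exception being gates per cell, which gave -0.91 (0.138) and 0.44 (0.142). In these cells the summed level of the 8 fibroblast markers was 24149.1 to 26774.7 in the small intestine, 45760.6 in the cecum and 36609.7 in the LI, and that of the 8 universal fibroblast markers was 1374 to 2172, then 3172 and 2840. That of the 8 pericyte markers was 157 to 198, then 42.8 and 75.2, and their part in the differences was not tested. Bmp4 rose from 79.8, 58.7, 121 and 51.3 to 207 and 143 (1.30, adjusted p = 0.0302), and without the cecum the difference was 0.93 (0.284). Bmp5 was 3.89 to 13.9, then 9.61 and 26.2 (1.19, adjusted p = 0.0181), with the cecum inside the small intestinal range. With gates per cell the Bmp5 difference was -0.16 (adjusted p = 0.699). In all, 3 of 6 genes rose and 1 fell.

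Large bowel Gdf10 also lay in cluster 9, an unnamed fibroblast cluster found there, at 42.9 in the cecum and 210 in the LI. It held 27.3% of cecal and 42.6% of LI Gdf10 UMIs, and universal fibroblast-like cells held 67.2% and 50.8%. In the small intestine cluster 13 held 27.5% to 66.7% and universal fibroblast-like cells 14.2% to 49.6%. Most Bmp6 UMIs of the small intestine were in lamina propria fibroblast-like cells (55.0% to 71.5%), which held 33.7% in the cecum, where universal fibroblast-like cells held 53.0%.

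B or plasma-like cells joined 2 clusters. Cluster 14, led by immunoglobulin genes, held 240, 238, 142 and 133 small intestinal, 10 cecal and 4 LI cells. Cluster 19, led by Bank1 and Pax5, held 17, 124, 102 and 78, then 43 and 67. Their median depths relative to the library were 1.825 and 0.4874. The part of this makeup in the levels of the class, also where used for comparison, was not tested. The class had 1 of 5 genes called. Bmp5 was 8.32, 4.78, 35.2 and 21.0 in the small intestine, 176 in the cecum and 74.0 in the LI (2.44, adjusted p = 0.0407, 7 of 15 alternatives), and 73.3% of the 30 LI UMIs came from 1 cell. The fibroblast marker sum in these cells was 714 to 5217 in the small intestine, 10052 in the cecum and 3466 in the LI, with none at 0. Without the cell with most UMIs the difference was 1.44 (0.144).

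The receptors, antagonists, SMADs and other ligands of the pathway were counted from a list of 76 genes. None was called between distal and proximal small intestine in any of 8 classes. In the large bowel comparison, lymphatic endothelial-like cells had 11 of 51 tested genes higher and 8 lower, with a median log2 difference of -0.03 against -0.09 over all genes, of which 19.1% were called. Id1, a direct BMP target, was 139 to 192 CPM in small intestinal lymphatics, 911 in the cecum and 522 in the LI (1.98), and Id2 was 19.7 to 22.9, 168 and 76.9 (2.36). Rgma, a BMP co-receptor, was 1.70 to 2.71, 13.3 and 11.3 (2.53). Vwc2, an antagonist that is also a marker of lamina propria fibroblast-like cells, was 3.24 to 4.64 in small intestinal lymphatics and 0 in both large bowel libraries. Grem1, the gremlin antagonist made by trophocytes, was lower by -3.19, at 11.3 to 17.0 in small intestinal lymphatics, 0.779 in the cecum and 3.04 in the LI, all below the 45.9 to 160.4 of small intestinal T or innate lymphoid-like cells. Acvr2a, a type II receptor, was lower by -1.59. Vwc2 was also called lower in pericyte-like, myofibroblast or smooth muscle-like, telocyte-like and all fibroblast-like cells.

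In pericyte-like cells 15 of 49 pathway genes were higher and 10 lower (median 0.16 against -0.008 over all genes, of which 16.6% were called). Bmper, a BMP-binding modulator, rose by 2.34 and Id1 by 2.22, and Gdf11, a ligand of the same superfamily, had a difference of -1.27. In myofibroblast or smooth muscle-like cells 8 of 51 were higher and 10 lower (median -0.20 against -0.048, with 14.4% of all genes called). There Chrdl2, a chordin-like antagonist, went from 0.756 to 3.81 up to 41.3 and 48.1 (4.57), while Grem1 and Nog, the noggin gene, each had a difference of -1.47. Telocyte-like cells had 5 of 50 higher and 12 lower (median -0.18 against -0.018, with 19.3% of all genes called). Id1 was higher there by 1.58 and Id3 by 1.35, whereas Vwc2 was 10.5 to 31.1 in the small intestine, 0 in the cecum and 0.0296 in the LI, and Bmpr1b, a type I receptor, 8.38 to 47.5, 0 and 1.33 (both called lower). Tll1, a BMP1-type protease, went from 83.8 to 242 down to 9.73 and 3.70 (-4.46). Universal fibroblast-like cells had 4 of 52 higher and 5 lower (median -0.11 against -0.014, with 8.58% of all genes called), lamina propria fibroblast-like cells 13 of 58 and 17 (-0.03 against -0.018, 37.5%), and all fibroblast-like cells 15 of 61 and 9 (0.07 against -0.035, 29.5%). B or plasma-like cells had 0 of 46 in either direction (0.20 against -0.12, 2.06%).

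The genes most like each ligand were taken as those with the highest Pearson correlation over 82 sums of a class in a library, among 13078 genes. The sums share libraries, cells of neighboring clusters and depth, so these values are descriptions. Bmp3 and Bmp7 were alike (r = 0.93), and both were closest to Cdhr17 (0.93 and 0.95) and Dclk3 (0.92 each). Bmp5 was closest to Foxf2, a forkhead factor of gut mesenchyme (0.90), 1700018A04Rik (0.90) and Col6a4 (0.89), and Bmp4 to Sdk1, Pla2g4a and Robo1 (0.91 each). Bmp2 came nearest to Daam2 (0.83), Rerg (0.81) and Gm33302 (0.80), and Bmp6 to Tshz3 (0.77), Tenm3 and Il17rd (0.72 each), the weakest set. Gdf10 was closest to Nrk and Ptn (0.88 each) and Alpk3 (0.86), and its correlation with the 6 other ligands ran from -0.50 with Bmp5 to -0.06 with Bmp2.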

How the data were processed

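The authors deposited raw UMI counts of every barcode (10x Chromium 3′ v3.1), aligned to mm39 with the tdTomato sequence added; their processing notes name Cell Ranger 8.1.0 and the file header 8.0.1. No cell, doublet or ambient RNA removal had been applied to the deposited counts. A barcode was taken as a cell at 1000 to 7500 genes, 2500 to 40000 UMIs and a mitochondrial share below 10%, and doublets were predicted with Scrublet (scanpy 1.11.5; 4.91% to 11.41% removed) at 0.8% per 1000 cells, in place of DoubletFinder. No SoupX was run, and the study's removal of clusters with few tdTomato cells was not applied. Cells were clustered on 2000 variable genes, 30 principal components and 20 neighbors (Leiden resolution 0.5, 21 clusters), after 115 genes (the ligands, the BMP pathway list and Wnt pathway genes) were kept out. Naming needed 3 or more markers of a class raised 1.5-fold (after adding 5 CPM) and seen in 5% of the cluster's cells. The requirements of Foxl1 for telocyte-like, of Kit and Ano1 for interstitial cells and the exclusion of clusters led by epithelial, cycling and collagen genes were set after the clusters were seen.

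Counts were summed per library and class (at least 50 cells) and tested with edgeR 4.0.16 (quasi-likelihood, TMM, filterByExpr with minimum count 10, R 4.3.3), adjusting p over all genes tested. Contrasts against fibroblast-like cells had the library as a block. Alternatives were limma-voom (limma 3.58.1), DESeq2 1.42.0, other filters and class definitions, and leaving out each library. The tests were tried on simulated data, with changes of 1.0 on the log2 scale and the same spread for every gene. The shares recovered hold for that setting only. Of the changes put in, 55.2% to 89.9% were recovered within class and against fibroblast-like cells. For the difference of effects in lymphatic endothelial-like cells it was 10.4%. Of the genes called, 1.85% to 5.96% had no change put in. All 7 ligands are named; of the 76 pathway genes at most the 3 with the largest called change in each direction, and for each ligand its 3 best-correlated genes (on log2 of CPM plus 5, at 20 or more in 1 sum). Ligands, pathway list and markers were chosen with earlier results of these data known. Poisson intervals cover counting error only. Intervals of log2 differences were built from the SE with a normal quantile, so with few libraries they are narrower than the edgeR test implies. Hashtags were used only to show spread and cells with several of them.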

Additional observations from a re-analysis of the deposited data

Results flagged for a closer look

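The large bowel effect of a ligand differed between a class and fibroblast-like cells, by the interaction test of the edgeR fit, in 6 cases. In myofibroblast or smooth muscle-like cells the log2 difference of effects was -2.18 for Bmp6 (called in 15 of 17 alternatives), -1.41 for Bmp5 (14 of 17) and -3.07 for Bmp7 (13 of 17). In lymphatic endothelial-like cells it was -4.85 for Bmp7 (17 of 17) and 2.55 for Gdf10, of which 1 LI cell held 35 of the 64 large bowel UMIs. In pericyte-like cells it was -0.996 for Bmp2 (10 of 16). The fibroblast-like cells they are set against held telocyte-like cells at 30.2% of LI but 0.283% to 1.06% of small intestinal cells, and the part of this makeup was not tested.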

How the results depend on the processing

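Of the single-gene results under the alternatives, 2640 kept their side of the threshold, 84 passed only under the alternative and 111 no longer passed. A further 9 changed sign where the main or the alternative fit passed. Changes of sign where neither fit passed were not counted apart and fall among the 2640. For distal against proximal small intestine (0 calls), DESeq2 gave 1, no filter on low counts 5 and leaving out 1 library 0 to 3. For the large bowel (25 calls), leaving out 1 library gave 12 to 26, with 12 without the LI and 19 without the cecum. For other classes against fibroblast-like cells (41 calls), the range was 25 to 41, with 25 of 28 remaining tests without the cecum, which left 4 classes. For the difference of effects (6 calls), limma-voom gave 2, gates per cell 3 of 14 tests, no filter 9, no doublet removal 13, and leaving out 1 library 3 to 10, with 3 without the LI and 10 without dSI 2.

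The counted changes of sign in the large bowel comparison were these. Bmp2 in myofibroblast or smooth muscle-like cells was -0.061 at clustering resolution 1.0. Bmp3 in lamina propria fibroblast-like cells was -1.57 with free RNA subtracted. Gdf10 in lamina propria fibroblast-like cells was 0.88 without doublet removal and 1.23 with gates per cell. Bmp5 in universal fibroblast-like cells was -0.16 with gates per cell. Against fibroblast-like cells, Gdf10 in B or plasma-like cells was 0.35 at resolution 1.0. In the difference of effects, lymphatic endothelial-like cells without doublet removal gave -1.89 for Bmp3, -1.21 for Bmp5 and -0.52 for Bmp4. The cause of these changes was not tested.

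The small intestinal libraries share the numbers 1 and 2 in their labels, which do not say what a number marks, and same-numbered libraries carry the same set of hashtags. Deviations of same-numbered libraries correlated at 0.105 to 0.526 over 8 classes, with only 2 pairs. With the replicate number as a block, 7 of 44 distal against proximal tests passed, 2 higher and 5 lower: in lymphatic endothelial-like cells Bmp5 (1.40, adjusted p = 7.07e-06), Bmp6 (-0.65, 0.000420) and Bmp7 (-1.09, 0.00152), in all fibroblast-like cells Bmp7 (-1.26, 0.0161), and in lamina propria fibroblast-like cells Bmp5 (0.60, 0.0184), Gdf10 (-1.03, 0.0224) and Bmp7 (-0.95, 0.0347). The share of all genes called with this block was not recorded, so these 7 are not shown to exceed it. With 18 blood endothelial-like, 14 T or innate lymphoid-like and 16 myeloid-like cells in the cecum, these classes were not tested between regions, since each fit needed 50 cells in all 6 libraries.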
